A study of Mus musculus with 15 samples.

Results

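Meiotic prophase genes were followed in mouse embryonic stem cells (ESCs), in the epiblast-like cells (EpiLCs) made from them, and in primordial germ cell-like cells (PGCLCs). The 43 members were chosen by their known roles in meiotic entry, sister chromatid cohesion, the chromosome axis and synaptonemal complex, DNA breaks, repair and crossover, and telomere attachment. The choice was made with earlier results of these data known. All 43 were found among the 55536 genes of the count table, and all 43 were among the 18090 genes that passed the filter on low counts.

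RNA-seq was performed on 15 samples, with 3 replicates in each of 5 groups named ESC, EpiLC, D2PGCLC, D4PGCLC and D6PGCLC, the last 3 taken on days 2, 4 and 6 of induction. Every group, the ESC and EpiLC controls included, carried a Stella-eGFP reporter, the rtTA activator and transgenes of *Nanog*, *Prdm1*, *Prdm14* and *Tfap2c* that doxycycline switches on. The transgenes were integrated with *piggyBac* vectors, except *Tfap2c*, which came in on a lentivirus, clones with the inserts were picked, and the study describes the engineered ESCs as male. ESCs were grown in 2i and LIF, and EpiLCs were collected after 48 h in Activin A and bFGF. PGCLCs came from EpiLCs aggregated in suspension, with doxycycline from the start of induction, and were sorted as Stella-eGFP+ cells. Doxycycline, aggregation, the change of medium and the sort therefore all separate D2PGCLCs from EpiLCs, and their parts cannot be told apart. Nothing in the labels says that replicates came from separate cultures, so the p-values measure only the spread between these samples.

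In meiosis, replicated chromosomes pass through successive divisions that leave haploid cells, and during prophase homologous chromosomes pair, synapse and recombine. Meiotic cohesins and axis proteins organise the chromosomes into loops, programmed breaks are made and repaired on the homologue, and the synaptonemal complex joins the paired axes. Primordial germ cells have not yet entered meiosis. In the embryo, female germ cells enter it in the fetal ovary, and male germ cells do so only after birth.

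The gene counts of a sample summed to between 22555021 and 42725681, and 3 counts corresponded to at most 0.132 CPM, the count scaled by the sample's TMM library size. D6PGCLC replicate 1 stood apart, with 1579 genes at 1 to 10 counts against 6189 to 7778 in the other samples, and low counts in that library carry this limit, also where a member is given without repeating it. Of the 8 primordial germ cell markers, 6 were higher in D2PGCLCs than in EpiLCs and 0 lower (11.0% and 14.4% of all tested genes). In D6PGCLCs against D4PGCLCs, 0 were higher and 2, *Dnd1* and *Nanos3*, were lower (2.29% and 0.785%). Of the 6, *Dppa3* is the gene of the sorted reporter, at 85.2 CPM in EpiLCs and 452 CPM in D2PGCLCs, and *Tfap2c* is also a transgene. In D6PGCLCs the summed levels were 907 to 988 CPM for 5 naive ESC markers and 142 to 205 CPM for 5 EpiLC markers. For 5 spermatogonial markers, which include *Kit*, the sum was 336 to 371 CPM, with 3 of the 5 under 1 CPM. That sum was 351 to 370 CPM in D2PGCLCs and 180 to 202 CPM in ESCs. In D6PGCLCs the 6 fibroblast markers summed to 1.47 to 2.05 CPM, with all 6 under 1 CPM. The 5 Sertoli and gonadal somatic markers summed to 1.81 to 2.79 CPM, with *Fshr* at 0 in every sample. In EpiLCs the fibroblast and Sertoli sums were 18.2 to 19.8 CPM and 23.2 to 27.5 CPM, above every PGCLC sample. Of the 5 Sertoli and gonadal somatic markers, 3 were under 1 CPM in EpiLCs. *Sox9* and *Wt1* were higher there than in ESCs (14.4% of all tested genes were higher), and *Amh* was not. The 5 endoderm markers summed to 9.51 to 18.0 CPM in D6PGCLCs against 4.47 to 4.67 CPM in D4PGCLCs. The part of these cells in the results was not tested.

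The comparisons ask when, between naive pluripotency and day 6 of induction, each member changed. A gene was called higher or lower at a Benjamini-Hochberg adjusted p under 0.05 in edgeR's quasi-likelihood test and an absolute log2 fold change above 1. More members were called higher than lower at every step. The same held for all tested genes, except in D2PGCLCs against EpiLCs. In EpiLCs against ESCs, 17 of 43 members were higher and 4 lower, where 14.4% of all tested genes were called higher and 11.9% lower, and the median log2 fold change was 0.74 over members and -0.01 over all tested genes. With *Rnf212*, which had no count in ESCs, set at its lower bound, that median was 0.60. In D2PGCLCs against EpiLCs, 11 were higher and 3 lower, against 11.0% and 14.4% of all tested genes, and the medians were 0.09 and 0.00. Without EpiLC replicate 1, 7 members were called higher at this step, and without D2PGCLC replicate 2, 1 was called lower.

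The later steps held fewer calls. In D4PGCLCs against D2PGCLCs, 4 members were higher, against 2.56% of all tested genes, and the medians were 0.28 and 0.02. Lower calls numbered 0 among members and 0.376% among all tested genes, while 3 members were lower at an unadjusted p under 0.05 and DESeq2 called 0. Leaving out D2PGCLC replicate 2, D2PGCLC replicate 3 or D4PGCLC replicate 2 brought the 4 higher calls to 2. In D6PGCLCs against D4PGCLCs, 3 members were higher, against 2.29% of all tested genes, and the medians were 0.26 and -0.01. Lower calls again numbered 0 by edgeR and by DESeq2, against 0.785% of all tested genes, with 2 members lower at an unadjusted p under 0.05. Without D6PGCLC replicate 3, 1 member was called higher, and without D6PGCLC replicate 1, 2 were.

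Over the whole course, 14 members were higher and 2 lower in D6PGCLCs than in EpiLCs, against 15.9% and 12.0% of all tested genes, with medians of 0.67 and 0.03. Relative to ESCs, 22 were higher and 1 lower, against 15.8% and 10.3%, with medians of 1.01 and 0.00. All 4 of these counts were identical without D6PGCLC replicate 1, though *Gm4969* was then no longer called higher than in EpiLCs. The replicates of the compared groups did not overlap for 21 members higher and 8 lower in EpiLCs against ESCs (31.5% and 32.0% of all tested genes) and for 13 higher and 11 lower in D2PGCLCs against EpiLCs (30.6% and 30.3%). They did not overlap for 14 higher and 3 lower in D4PGCLCs against D2PGCLCs (16.5% and 12.0%) and for 11 higher and 2 lower in D6PGCLCs against D4PGCLCs (14.1% and 15.4%). In D6PGCLCs these counts were 24 and 4 against EpiLCs (32.5% and 30.5%) and 27 and 5 against ESCs (30.7% and 31.3%). These comparisons share samples with the steps and with each other. The mean level was highest in D6PGCLCs for 24 of the 43 members, or 55.8%, where 19.8% of all tested genes were highest there, and it was lowest in ESCs for 24 members and for 25.5% of all tested genes. In bulk samples, a gene expressed in fewer cells and a gene with less RNA per cell cannot be told apart.

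**Figure D1:**
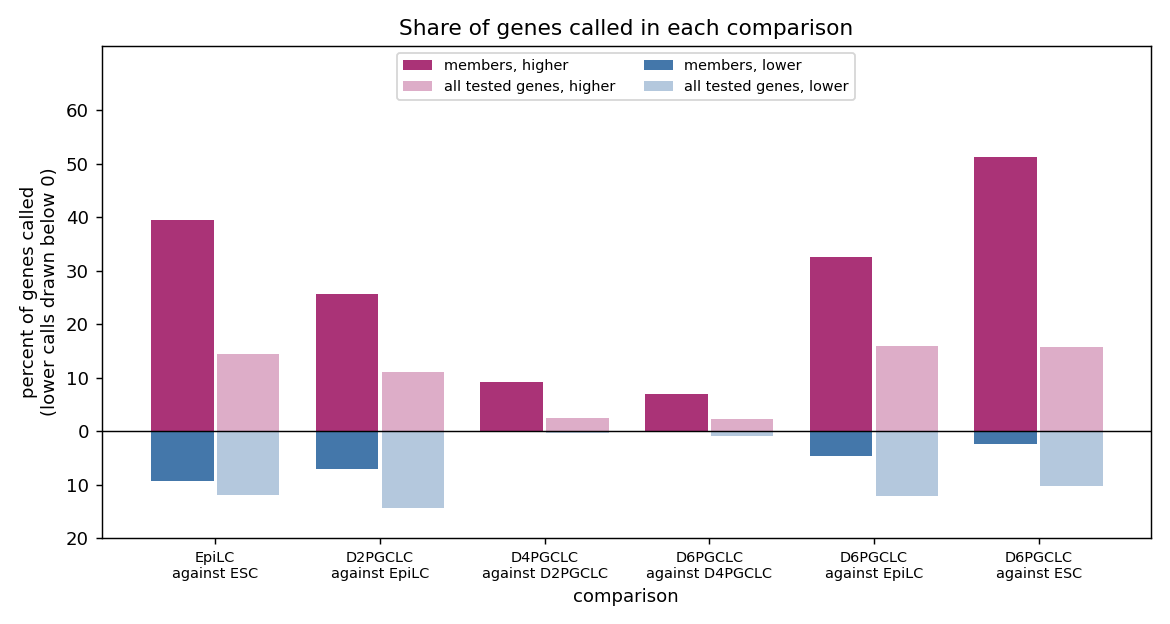
Percent of the 43 members (dark bars) and of all 18090 tested genes (pale bars) called higher (above 0) or lower (below 0) in each of 6 comparisons. Members were called higher in 39.5% of cases in EpiLCs against ESCs (14.4% of all tested genes) and in 51.2% in D6PGCLCs against ESCs (15.8%). In the 2 steps after day 2, 0 members were called lower, which is near the shares of 0.376% and 0.785% of all tested genes.

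**Figure D2:**
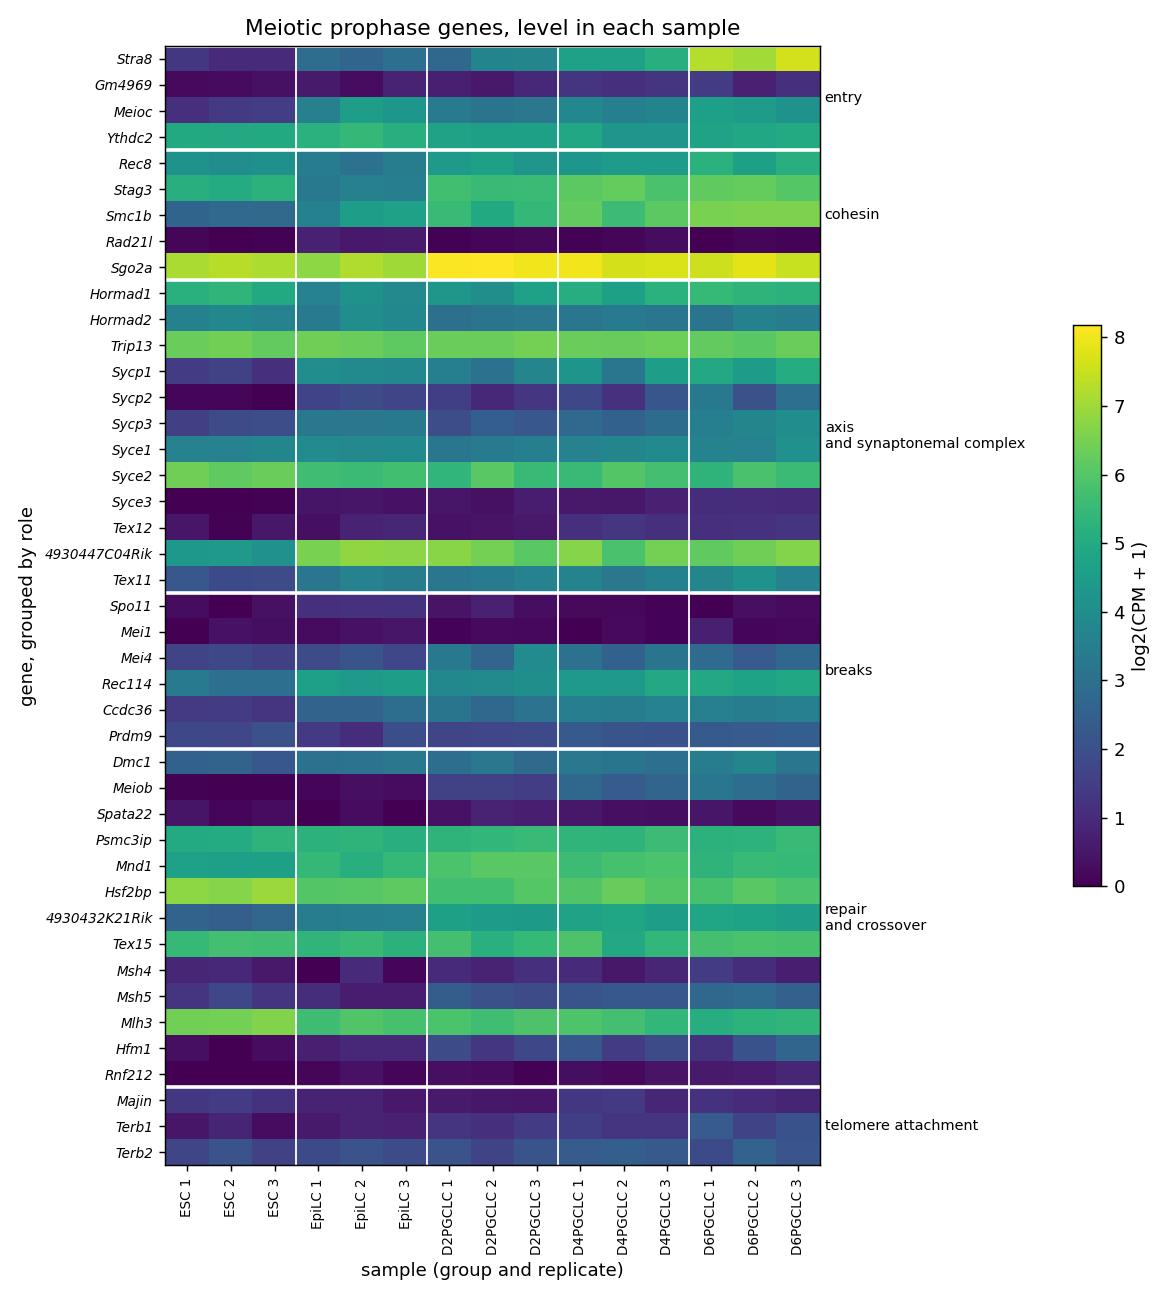
Level of each member, as log2(CPM + 1), in each of the 15 samples, with genes in rows by role and white lines between roles and groups. *Stra8*, *Smc1b* and *Stag3* brighten towards day 6, while *Trip13* and *Psmc3ip* look alike in all samples.

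Promoters of 34 of the 43 members were in the RefSeq table used here (build GRCm38.p6), as 40 windows of 300 bases, 250 before and 50 after the start. The entries of *Gm4969*, *Ythdc2*, *Tex11*, *Spo11*, *Ccdc36*, *Meiob*, *Tex15*, *Majin* and *Terb2* were not in it. The E-box CACGTG, a word bound by MAX and its partners, stood in 10 of the 40 windows (25.0%) and in 7.15% of all 32851 windows. An E2F word (TTCCCGCC or TTTCCCGC on either strand, which overlap in most of their letters) stood in 12 (30.0%) and in 2.73%. Some members had more than 1 window, and the E-box stood in windows of 9 and an E2F word in windows of 11 of the 34 members. The median number of CG dinucleotides was 19 in member windows and 7 in all windows, and the motif shares were not matched for it. Windows of *Hormad1*, *Sycp3* and *Tex12*, each called in at least 1 comparison, held both motifs before the start, and that of *Sycp1* held the E-box. These 4 are shown as chosen examples from the axis and synaptonemal complex, where a window of *Syce2* also held both motifs before the start and that of *4930447C04Rik* the E-box. They are written 5′ to 3′ on the gene's strand, up to the start or to the nearest annotated exon, with the motifs in capitals.
Hormad1 (chr3:95559427-95559676, + strand): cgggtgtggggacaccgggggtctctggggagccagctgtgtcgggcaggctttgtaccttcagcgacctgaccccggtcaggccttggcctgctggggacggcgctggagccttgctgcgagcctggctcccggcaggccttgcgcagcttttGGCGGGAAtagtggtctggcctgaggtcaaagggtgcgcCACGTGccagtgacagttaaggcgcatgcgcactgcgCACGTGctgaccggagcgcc
Sycp3 (chr10:88459337-88459568, + strand): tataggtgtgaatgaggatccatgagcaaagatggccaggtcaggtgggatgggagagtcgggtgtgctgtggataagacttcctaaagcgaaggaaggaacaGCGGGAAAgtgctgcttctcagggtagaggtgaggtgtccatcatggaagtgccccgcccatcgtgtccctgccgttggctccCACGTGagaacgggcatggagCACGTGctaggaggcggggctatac
Tex12 (chr9:50561326-50561518, - strand): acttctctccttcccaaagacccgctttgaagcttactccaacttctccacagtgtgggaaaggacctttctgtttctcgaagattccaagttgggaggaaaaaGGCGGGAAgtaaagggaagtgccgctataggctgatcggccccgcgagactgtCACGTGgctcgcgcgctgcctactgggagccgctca
Sycp1 (chr3:102936101-102936350, - strand): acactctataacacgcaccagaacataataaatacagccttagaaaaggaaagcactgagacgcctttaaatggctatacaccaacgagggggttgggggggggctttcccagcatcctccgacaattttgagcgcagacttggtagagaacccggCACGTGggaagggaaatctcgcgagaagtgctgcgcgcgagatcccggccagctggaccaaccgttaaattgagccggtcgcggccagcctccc
The *Hormad1* stretch held 2 E-boxes and 1 E2F word, as did that of *Sycp3*, while *Tex12* held 1 of each. *Stra8*, *Smc1b*, *Rec8* and *Sycp2* had neither motif in their windows. A match is a description of the letters in this window and not evidence of binding.

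Of the 4 entry genes, *Stra8* rose at 3 of the 4 steps between successive groups. At day 6 it was the member with the highest level per length. *Meioc* rose at the EpiLC step, was lower in D2PGCLCs but still above ESCs, and had its highest mean in D6PGCLCs. *Stra8*, a factor needed for germ cells to start meiosis in response to retinoic acid, lies at chr6:34920163-34939344 (mm10, ENSMUSG00000029848). Its level was 1.50, 1.01 and 1.01 CPM in ESCs, 6.58, 5.39 and 6.94 in EpiLCs, 5.61, 11.9 and 12.3 in D2PGCLCs, 24.6, 24.4 and 34.1 in D4PGCLCs, and 153, 130 and 194 in D6PGCLCs. All D6PGCLC samples lay above all D4PGCLC samples, and only EpiLCs and D2PGCLCs overlapped. *Stra8* rose by 2.42 on the log2 scale in EpiLCs against ESCs (SE 0.31, adjusted p = 2.86e-06, edgeR), and the difference of 0.66 between D2PGCLCs and EpiLCs (SE 0.24, adjusted p = 0.0264) was under the fold-change threshold. The rise was 1.48 in D4PGCLCs against D2PGCLCs (SE 0.22, adjusted p = 0.000372) and 2.52 in D6PGCLCs against D4PGCLCs (SE 0.22, adjusted p = 1.68e-06), and over the course from EpiLCs it was 4.66 (SE 0.25, adjusted p = 2.03e-11). At day 6 its mean of 88.1 RPKM (SD 18.1), which is per exon length, was followed by 48.9 RPKM for *Mnd1*.

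*Meioc*, which acts with *Ythdc2* on RNA to keep germ cells in prophase, had 1.17, 1.62 and 1.78 CPM in ESCs and 10.8, 22.5 and 18.6 CPM in EpiLCs. It then had 9.04, 7.88 and 8.40 CPM in D2PGCLCs, 13.0, 10.5 and 11.9 in D4PGCLCs, and 23.4, 22.2 and 17.2 in D6PGCLCs. Its samples were low in ESCs, and those of EpiLCs and D6PGCLCs overlapped. The rise to EpiLCs was 3.50 (log2, SE 0.25, adjusted p = 9.01e-10), and it fell by 1.03 to D2PGCLCs (SE 0.21, adjusted p = 0.000388), a call lost without EpiLC replicate 2, EpiLC replicate 3 or D2PGCLC replicate 2 (log2 fold changes of -0.98 to -0.79). *Gm4969*, also known as *Meiosin* and the partner of STRA8, had 13, 6 and 20 counts in EpiLCs and 66, 31 and 42 in D6PGCLCs. In CPM the groups overlapped, at 0.197 to 0.734 in EpiLCs and 0.683 to 1.73 in D6PGCLCs, and the highest value was in D6PGCLC replicate 1. Its rise of 1.34 over EpiLCs (log2, SE 0.50, adjusted p = 0.0287) lost the call without EpiLC replicate 1 or 2 or D6PGCLC replicate 1 or 3, and when only these groups were fitted, with adjusted p from 0.0522 to 0.129. *Ythdc2*, an RNA helicase, was not called in any comparison and averaged 21.9 to 37.8 CPM in the 5 groups.

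**Figure D3:**
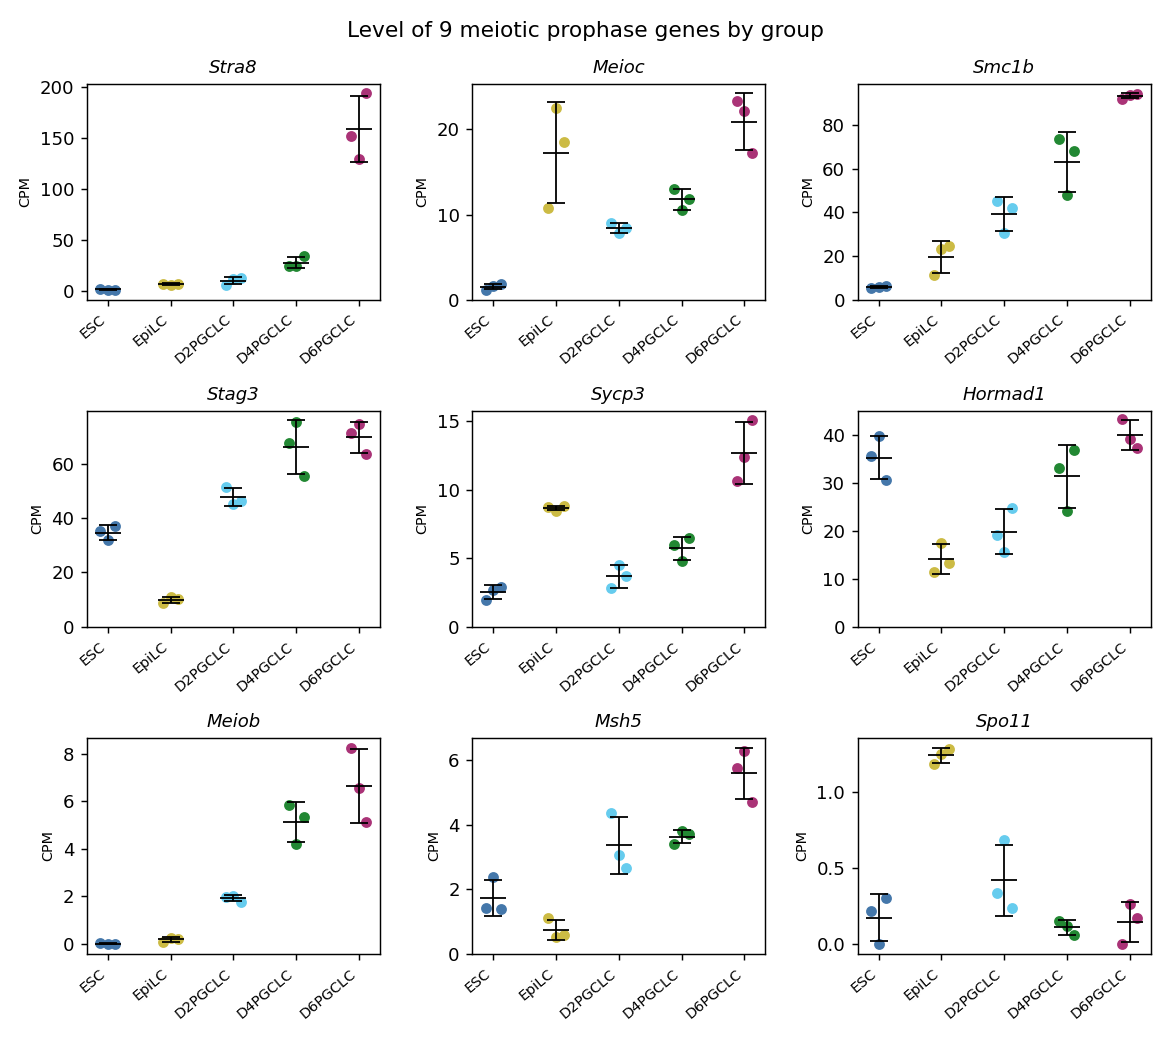
Level in CPM of 9 members in each sample (points, coloured by group), with the group mean and SD (black bars, n = 3). *Stra8* reaches 130 to 194 CPM in D6PGCLCs, *Meioc*, *Sycp3* and *Spo11* are raised in EpiLCs, and *Stag3*, *Hormad1* and *Msh5* are lowest in EpiLCs.

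Of the cohesin genes, those of the meiotic subunits *Rec8*, *Stag3* and *Smc1b* were higher in D6PGCLCs than in EpiLCs, and the alternative kleisin *Rad21l* was lower. *Stag3*, which replaces the mitotic STAG1 and STAG2 in meiotic cohesin, had 35.1, 31.8 and 37.1 CPM in ESCs, 8.80, 10.9 and 10.3 in EpiLCs, 51.4, 45.3 and 46.2 in D2PGCLCs, 67.8, 75.2 and 55.5 in D4PGCLCs, and 71.2, 74.6 and 63.4 in D6PGCLCs. EpiLCs were the low group, and every PGCLC sample lay above every ESC sample. It fell by 1.79 in EpiLCs against ESCs (log2, SE 0.12, adjusted p = 5.12e-10) and rose by 2.25 in D2PGCLCs against EpiLCs (SE 0.12, adjusted p = 3e-11). The rise from EpiLCs to D6PGCLCs was 2.80 (SE 0.12, adjusted p = 1.73e-12). Against ESCs, *Stag3* was higher in D6PGCLCs by 1.01 (SE 0.11, adjusted p = 5.19e-07, edgeR). That difference was 0.95, under the threshold, without ESC replicate 2 or without D6PGCLC replicate 2.

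*Smc1b*, the meiotic partner of SMC3, had 5.25, 6.01 and 6.13 CPM in ESCs, 11.1, 23.2 and 24.4 in EpiLCs, 45.1, 30.6 and 42.2 in D2PGCLCs, 73.7, 47.8 and 68.4 in D4PGCLCs, and 92.2, 94.0 and 94.3 in D6PGCLCs. The samples of neighbouring groups did not overlap at any step. Its rise was 1.76 in EpiLCs against ESCs (log2, SE 0.24, adjusted p = 5.07e-06) and 2.25 in D6PGCLCs against EpiLCs (SE 0.22, adjusted p = 6.2e-08). The step from EpiLCs to D2PGCLCs stood at the threshold, at 1.00 (SE 0.21, adjusted p = 0.000637), and fell under it with DESeq2 and without EpiLC replicate 1, D2PGCLC replicate 1 or D2PGCLC replicate 3, at 0.73 to 0.96. *Rec8*, the kleisin that holds sister chromatids until the second division, had 17.1, 15.2 and 16.1 CPM in ESCs, 9.91, 7.43 and 9.72 in EpiLCs, 20.6, 24.2 and 18.2 in D2PGCLCs, 18.5, 21.4 and 22.1 in D4PGCLCs, and 36.1, 24.1 and 34.0 in D6PGCLCs. EpiLCs were lowest and did not overlap with any other group. The rise from EpiLCs was 1.22 by D2PGCLCs (log2, SE 0.16, adjusted p = 3.59e-06) and 1.80 by D6PGCLCs (SE 0.16, adjusted p = 2.09e-08), whereas the difference from ESCs at day 6 was 0.96 (SE 0.15, adjusted p = 3.91e-05), under the fold-change threshold but past it, at 1.12, without D6PGCLC replicate 2.

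*Rad21l* was counted in few reads, with 2, 0 and 1 in ESCs, 18, 14 and 14 in EpiLCs, 1, 2 and 4 in D2PGCLCs, 1, 3 and 7 in D4PGCLCs, and 0, 5 and 2 in D6PGCLCs. EpiLCs were the high group and overlapped with no other. The ratio of EpiLCs to ESCs was 14.7 (95% exact interval 4.71 to 73.6, counting error only), and *Rad21l* fell by 2.83 in D2PGCLCs against EpiLCs (log2, SE 0.90, adjusted p = 0.0132) and by 3.18 in D6PGCLCs against EpiLCs (SE 0.90, adjusted p = 0.00553). Without D6PGCLC replicate 1, which had the 0 and stands apart in low counts, the second fall of *Rad21l* was -2.63 (adjusted p = 0.0145). The first of these falls was not called without D2PGCLC replicate 1 or 2, with adjusted p of 0.0764 and 0.0510, nor with no filter on low counts (0.0508). *Sgo2a*, the shugoshin that protects centromeric cohesion, had 109, 147 and 127 CPM in EpiLCs and 277, 289 and 258 in D2PGCLCs, with no overlap, and rose by 1.10 (log2, SE 0.12, adjusted p = 2.1e-07). It was at 139, 156 and 143 CPM in ESCs, 254, 199 and 208 in D4PGCLCs, and 185, 227 and 178 in D6PGCLCs. *Kctd18*, on the opposite strand, covers 35.0% of its exon bases and averaged 19.6 CPM in EpiLCs and 48.8 CPM in D2PGCLCs. Whether the counting used strand is not given in the sources used here, so the values of *Sgo2a*, and of *Sycp3*, *Rec114* and *Psmc3ip*, which also share exon bases with a gene on the opposite strand, are uncertain.

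Mitotic counterparts of the meiotic genes were read beside them. Of 18 such genes, 0 were called higher and 1 lower in D6PGCLCs against EpiLCs (15.9% and 12.0% of all tested genes). Their median log2 fold change was -0.16, and the lower gene was *Stag2* at -2.16 (SE 0.11, adjusted p = 8.32e-12, edgeR). Per exon length, *Stag3* stood at 27.1% ± 3.38 (SD, n = 3) of the sum of *Stag1* and *Stag2* in ESCs and 4.24% ± 0.233 in EpiLCs. It then reached 32.8% ± 2.07 in D2PGCLCs, 64.2% ± 11.2 in D4PGCLCs and 65.5% ± 5.74 in D6PGCLCs. The EpiLC value also holds a change of *Stag2*, which averaged 289 CPM in EpiLCs against 110 CPM in ESCs. From D2PGCLCs to D4PGCLCs, where the ratio went from 32.8% to 64.2%, *Stag3* itself rose by 0.47 (log2, SE 0.11, adjusted p = 0.00969, edgeR), under the threshold. *Smc1b* was at 3.10% ± 0.267 of *Smc1a* in ESCs and 8.80% ± 3.10 in EpiLCs. The D2PGCLC value was 18.5% ± 3.59, that of D4PGCLCs was 35.7% ± 6.78 and that of D6PGCLCs was 54.3% ± 2.52. *Rec8* remained a small share of *Rad21*, between 3.89% ± 0.898 in EpiLCs and 8.17% ± 2.17 in D6PGCLCs. The share was 4.92% ± 0.693 in D2PGCLCs, although *Rec8* itself had risen by 1.22 (log2) from EpiLCs. These ratios are descriptions, with no test, and each also holds any change of the mitotic counterpart.

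**Figure D4:**
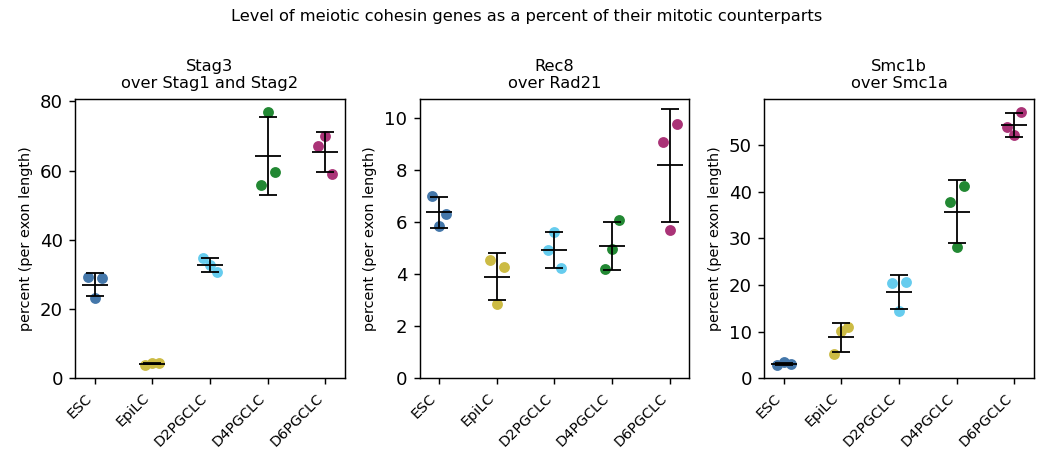
Level per exon length of *Stag3*, *Rec8* and *Smc1b* as a percent of their mitotic counterparts in each sample (points), with the group mean and SD (black bars, n = 3). *Smc1b* goes from 3.10% of *Smc1a* in ESCs to 54.3% in D6PGCLCs, while *Rec8* stays under 10% of *Rad21* in every sample.

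Of the 12 axis and synaptonemal complex genes, 6 were higher and 1 lower in EpiLCs than in ESCs (14.4% and 11.9% of all tested genes). In D6PGCLCs against EpiLCs, 3 were higher and 0 lower (15.9% and 12.0%). *Sycp1*, the transverse filament that bridges the paired axes, had 1.71, 2.02 and 1.17 CPM in ESCs, 15.2, 14.1 and 13.0 in EpiLCs, 10.6, 7.42 and 12.3 in D2PGCLCs, 17.8, 8.28 and 22.6 in D4PGCLCs, and 30.0, 21.8 and 32.2 in D6PGCLCs. ESC samples lay below all others, and D4PGCLCs spread widely. The rise to EpiLCs was 3.12 (log2, SE 0.32, adjusted p = 1.59e-07), and the difference between D6PGCLCs and EpiLCs was 0.99 (SE 0.26, adjusted p = 0.00355), under the fold-change threshold but past it without EpiLC replicate 1 (1.05) or D6PGCLC replicate 2 (1.14) and with no filter on low counts.

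*Sycp2* and *Sycp3* encode the lateral elements. *Sycp3* had 1.93, 2.72 and 2.91 CPM in ESCs, 8.72, 8.48 and 8.81 in EpiLCs, 2.85, 4.48 and 3.69 in D2PGCLCs, 5.97, 4.82 and 6.44 in D4PGCLCs, and 10.6, 12.4 and 15.1 in D6PGCLCs. It was high in EpiLCs, low in D2PGCLCs and highest in D6PGCLCs, with no overlap between those 3 groups. It rose by 1.78 in EpiLCs against ESCs (log2, SE 0.21, adjusted p = 9.98e-07), fell by 1.24 in D2PGCLCs (SE 0.20, adjusted p = 4.45e-05) and rose by 1.14 in D6PGCLCs against D4PGCLCs (SE 0.20, adjusted p = 0.00101), which was 0.997, under the threshold, without D6PGCLC replicate 3. *Chpt1*, on the opposite strand, covers 52.2% of the *Sycp3* exon bases and averaged 12.6 CPM in ESCs and 9.69 CPM in EpiLCs, then 19.9 CPM in D2PGCLCs, 16.6 CPM in D4PGCLCs and 20.4 CPM in D6PGCLCs, so the *Sycp3* values are uncertain.

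*Sycp2* had 3, 2 and 0 counts in ESCs, 56, 83 and 62 in EpiLCs, 60, 24 and 49 in D2PGCLCs, 79, 41 and 126 in D4PGCLCs, and 338, 139 and 242 in D6PGCLCs. Its lowest D6PGCLC library overlapped with the highest D4PGCLC library once scaled to CPM, at 3.06 and 3.61. The ratio of EpiLCs to ESCs was 38.4 (95% exact interval 16.2 to 120). It rose by 1.39 in D6PGCLCs against EpiLCs (log2, SE 0.41, adjusted p = 0.00769) and by 1.37 against D4PGCLCs (SE 0.41, adjusted p = 0.0345), the latter call being lost without D4PGCLC replicate 1 or 2 or D6PGCLC replicate 1 or 3, or with only these groups fitted (adjusted p 0.0791 to 0.146).

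*Hormad1*, an axis protein that marks unsynapsed chromosomes, had 35.5, 39.7 and 30.6 CPM in ESCs, 11.4, 17.6 and 13.3 in EpiLCs, 19.1, 15.5 and 24.8 in D2PGCLCs, 33.1, 24.1 and 36.8 in D4PGCLCs, and 43.4, 39.1 and 37.3 in D6PGCLCs. The dip in EpiLCs did not overlap with ESCs or D6PGCLCs. It fell by 1.32 in EpiLCs against ESCs (log2, SE 0.18, adjusted p = 7.36e-06) and rose by 1.50 from EpiLCs to D6PGCLCs (SE 0.18, adjusted p = 1.23e-06). Its relative *Hormad2* averaged 7.82 to 12.3 CPM and *Trip13*, the ATPase that removes HORMADs from the axis, 72.8 to 82.2 CPM, and neither was called in any comparison.

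Of the central element genes, *4930447C04Rik*, also known as *Six6os1*, had 19.6, 20.3 and 16.5 CPM in ESCs and 91.3, 113 and 108 in EpiLCs, then 104, 88.4 and 67.2 in D2PGCLCs, 103, 55.5 and 87.2 in D4PGCLCs, and 70.9, 84.6 and 101 in D6PGCLCs. ESCs were the low group, and no later group lay apart from EpiLCs. The rise to EpiLCs was 2.47 (log2, SE 0.20, adjusted p = 5.43e-09). *Syce3* had 0, 0 and 1 counts in ESCs, 10, 12 and 9 in EpiLCs, 13, 8 and 19 in D2PGCLCs, 16, 15 and 24 in D4PGCLCs, and 42, 48 and 35 in D6PGCLCs. Each D6PGCLC library was above every earlier library. The ratio of EpiLCs to ESCs was 29.6 (95% exact interval 4.94 to 1207), and the rise from EpiLCs to D6PGCLCs was 1.50 (log2, SE 0.51, adjusted p = 0.0176), with adjusted p of 0.0519 to 0.0647 without EpiLC replicate 3 or with no filter on low counts.

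*Tex12*, a further central element gene, had 11, 1 and 13 counts in ESCs, 7, 22 and 23 in EpiLCs, 10, 10 and 16 in D2PGCLCs, 38, 49 and 40 in D4PGCLCs, and 44, 56 and 49 in D6PGCLCs. D4PGCLCs and D6PGCLCs lay above the other groups. The rise from D2PGCLCs to D4PGCLCs was 1.71 (log2, SE 0.53, adjusted p = 0.0432), and the call was lost when any of the 6 libraries was left out, with adjusted p of 0.0656 to 0.148. *Syce1* averaged 9.36 to 14.0 CPM and *Syce2* 47.3 to 78.4 CPM, with no call in any comparison. *Tex11*, a synapsis and crossover factor, was also called higher in EpiLCs than in ESCs and averaged 2.96 CPM in ESCs and 9.56 to 13.6 CPM in the other groups.

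Of the 6 genes for making DNA breaks, 3 were higher in EpiLCs than in ESCs, against 14.4% of all tested genes. *Spo11*, the enzyme that cuts the DNA, was called higher in EpiLCs and lower again by day 6. It had 6, 0 and 9 counts in ESCs, 31, 38 and 35 in EpiLCs, 11, 19 and 8 in D2PGCLCs, 5, 4 and 2 in D4PGCLCs, and 0, 12 and 6 in D6PGCLCs. EpiLCs were the high group and overlapped with no other, and the 0 at day 6 was in the library with few low counts. *Spo11* rose by 2.76 in EpiLCs (log2, SE 0.85, adjusted p = 0.011) and fell by 3.04 from EpiLCs to D6PGCLCs (SE 0.84, adjusted p = 0.00476), both also called with any library left out. In D6PGCLCs it averaged 0.0369 RPKM, next to last of the 43 members and above *Rad21l* at 0.0335 RPKM, a difference smaller than either SD.

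*Rec114*, which with *Mei4* and *Ccdc36* (*Iho1*) prepares the axis for breaks, had 9.49, 6.97 and 6.87 CPM in ESCs, 23.4, 19.9 and 23.1 in EpiLCs, 13.2, 14.2 and 15.8 in D2PGCLCs, 20.2, 20.5 and 29.7 in D4PGCLCs, and 29.9, 25.5 and 28.6 in D6PGCLCs. ESCs were lowest and D6PGCLCs lay above EpiLCs without a call, and the rise to EpiLCs was 1.51 (log2, SE 0.16, adjusted p = 2.89e-07). *Nptn*, on the opposite strand, covers 26.9% of its exon bases. *Ccdc36* had 1.61, 1.67 and 1.37 CPM in ESCs, 5.05, 5.10 and 6.83 in EpiLCs, 8.09, 5.66 and 7.65 in D2PGCLCs, 10.2, 9.76 and 11.2 in D4PGCLCs, and 10.7, 10.2 and 10.9 in D6PGCLCs. It rose by 1.87 in EpiLCs against ESCs (log2, SE 0.19, adjusted p = 1.79e-07), and its ESC samples lay below all others.

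*Mei4* had 2.23, 2.45 and 1.94 CPM in ESCs, 2.72, 3.35 and 2.31 in EpiLCs, 8.89, 5.30 and 14.4 in D2PGCLCs, 7.34, 4.85 and 8.08 in D4PGCLCs, and 6.28, 4.07 and 5.81 in D6PGCLCs. All PGCLC samples lay above all earlier samples, and D2PGCLCs spread most. Its rise in D2PGCLCs was 1.77 (log2, SE 0.30, adjusted p = 7.39e-05). *Prdm9*, the histone methyltransferase that places breaks at hotspots, had 2.44, 2.37 and 3.08 CPM in ESCs, 1.65, 1.09 and 2.94 in EpiLCs, 2.24, 2.37 and 2.52 in D2PGCLCs, 3.94, 3.37 and 3.21 in D4PGCLCs, and 3.94, 4.05 and 4.42 in D6PGCLCs. D6PGCLCs lay above EpiLCs without overlap, at a log2 fold change of 1.13 (SE 0.28, adjusted p = 0.00204), and at 0.86 without EpiLC replicate 2. *Mei1* had 0 to 11 counts in every library but D6PGCLC replicate 1, which had 25, and was not called.

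Of the 13 repair and crossover genes, 4 were higher and 0 lower in D6PGCLCs than in EpiLCs (15.9% and 12.0% of all tested genes). *Meiob* had the largest log2 fold change of all members in that comparison. *Meiob*, which coats single-stranded DNA with SPATA22 during meiotic repair, had 1, 0 and 0 counts in ESCs, 2, 8 and 6 in EpiLCs, 65, 56 and 59 in D2PGCLCs, 193, 139 and 187 in D4PGCLCs, and 314, 298 and 181 in D6PGCLCs. No library of a PGCLC group overlapped with EpiLCs, and in CPM the D4PGCLC and D6PGCLC samples overlapped. The rise was 3.31 in D2PGCLCs against EpiLCs (log2, SE 0.38, adjusted p = 7.14e-07), 1.42 in D4PGCLCs against D2PGCLCs (SE 0.28, adjusted p = 0.00299) and 5.10 in D6PGCLCs against EpiLCs (SE 0.37, adjusted p = 1.34e-09). Relative to the 1 count in ESCs, the ratio was 15.3 in EpiLCs (95% exact interval 2.38 to 641) and 535 in D6PGCLCs (95.7 to 21144).

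Its partner *Spata22* had 10, 2 and 6 counts in ESCs, 0, 6 and 0 in EpiLCs, 10, 21 and 20 in D2PGCLCs, 15, 9 and 8 in D4PGCLCs, and 16, 7 and 11 in D6PGCLCs. D2PGCLCs lay above EpiLCs, and the later groups overlapped with ESCs. The rise in D2PGCLCs against EpiLCs was 2.92 (log2, SE 0.94, adjusted p = 0.0136), with adjusted p of 0.0578 and 0.0588 without EpiLC replicates 1 and 3. *Gm49340* on the same strand covers 80.5% of its exon bases and had 0 counts in all samples, so *Spata22* values are uncertain.

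*Msh5*, which with *Msh4* stabilises crossover intermediates, had 1.42, 2.37 and 1.37 CPM in ESCs, 1.11, 0.526 and 0.587 in EpiLCs, 4.35, 3.05 and 2.67 in D2PGCLCs, 3.40, 3.80 and 3.69 in D4PGCLCs, and 5.75, 6.28 and 4.71 in D6PGCLCs. EpiLCs were lowest and D6PGCLCs highest, apart from all other groups. It fell by 1.21 in EpiLCs against ESCs (log2, SE 0.33, adjusted p = 0.00441), which was -0.93 without ESC replicate 2 and -0.998 without EpiLC replicate 2. It rose by 2.19 in D2PGCLCs against EpiLCs (SE 0.32, adjusted p = 1.13e-05) and by 2.92 in D6PGCLCs against EpiLCs (SE 0.31, adjusted p = 2.52e-07). *Msh4* was not called and had 0, 29 and 3 counts in EpiLCs and 66, 50 and 22 in D6PGCLCs.

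*Hfm1*, a helicase needed for crossovers, had 7, 0 and 6 counts in ESCs, 17, 27 and 25 in EpiLCs, 89, 41 and 80 in D2PGCLCs, 120, 58 and 93 in D4PGCLCs, and 49, 146 and 191 in D6PGCLCs. The spread was widest in D6PGCLCs, whose lowest library was replicate 1. It rose by 2.33 in EpiLCs against ESCs (log2, SE 0.67, adjusted p = 0.00667), by 1.42 in D2PGCLCs against EpiLCs (SE 0.51, adjusted p = 0.0241) and by 2.00 in D6PGCLCs against EpiLCs (SE 0.50, adjusted p = 0.00218). The D2PGCLC call was lost without EpiLC replicate 1 or 2 or D2PGCLC replicate 1 or 3 (adjusted p 0.0510 to 0.0843). *Rnf212*, a crossover regulator, had 0 counts in all 3 ESC libraries, 3, 10 and 2 in EpiLCs, 9, 6 and 1 in D2PGCLCs, 8, 5 and 12 in D4PGCLCs, and 19, 24 and 29 in D6PGCLCs. Against a floor of 3 counts per ESC library, it was at least 1.51-fold higher in EpiLCs and at least 5.42-fold higher in D6PGCLCs (adjusted p = 0.00653 and 0.00027, edgeR).

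*4930432K21Rik*, also known as *Brme1*, works with *Hsf2bp* to bring BRCA2 to meiotic breaks. *4930432K21Rik* had 139, 105 and 164 counts in ESCs, 254, 310 and 293 in EpiLCs, 783, 602 and 700 in D2PGCLCs, 832, 905 and 784 in D4PGCLCs, and 1024, 1176 and 803 in D6PGCLCs. The 3 PGCLC groups overlapped with each other and lay above EpiLCs, at 1.12 in D2PGCLCs (log2, SE 0.12, adjusted p = 2.64e-07) and 1.30 in D6PGCLCs (SE 0.12, adjusted p = 2.91e-08). EpiLCs lay above ESCs at 1.01 (SE 0.13, adjusted p = 2.01e-06), which was 0.95 without ESC replicate 2 and 0.99 without EpiLC replicate 3. *Hsf2bp* itself averaged 112 CPM in ESCs and 55.5 to 67.3 CPM in the other groups, with no call.

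Other repair genes had fewer calls. *Dmc1*, the meiotic recombinase, averaged 4.54 CPM in ESCs and 10.4 CPM in D6PGCLCs, which was called higher, and was called at no step between successive groups. *Mlh3*, which cuts crossover intermediates, went the other way, from 90.4 CPM in ESCs to 36.9 CPM in D6PGCLCs, and fell by 1.29 (SE 0.12, adjusted p = 4.73e-08). *Psmc3ip* and *Mnd1*, which form a complex that assists DMC1, averaged 34.1 to 42.3 CPM and 24.0 to 63.6 CPM without a call, and *Tex15*, a repair factor, averaged 40.9 to 54.6 CPM, also without a call. *Mlx*, on the opposite strand, covers 21.2% of the *Psmc3ip* exon bases.

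Of the 3 telomere attachment genes, 1 was higher and 0 lower in D6PGCLCs than in EpiLCs, against 15.9% and 12.0% of all tested genes. Their proteins MAJIN, TERB1 and TERB2 tie telomeres to the nuclear envelope. *Terb1* had 11, 18 and 6 counts in ESCs, 13, 22 and 19 in EpiLCs, 44, 33 and 58 in D2PGCLCs, 61, 46 and 47 in D4PGCLCs, and 157, 101 and 112 in D6PGCLCs. Every PGCLC library was above every EpiLC library, and D6PGCLCs were above all. It rose by 1.15 in D2PGCLCs against EpiLCs (log2, SE 0.40, adjusted p = 0.0225) and by 2.30 in D6PGCLCs against EpiLCs (SE 0.40, adjusted p = 6.93e-05), the first with adjusted p of 0.0777 and 0.0821 without EpiLC replicate 1 and D2PGCLC replicate 3. *Majin* had 41, 39 and 39 counts in ESCs, 19, 22 and 13 in EpiLCs, 17, 12 and 14 in D2PGCLCs, 49, 54 and 29 in D4PGCLCs, and 48, 46 and 28 in D6PGCLCs. EpiLCs and D2PGCLCs were the low groups. It fell by 1.22 in EpiLCs against ESCs (log2, SE 0.39, adjusted p = 0.0126; 0.0587 without EpiLC replicate 3 and 0.0502 with no filter on low counts) and rose by 1.51 in D4PGCLCs against D2PGCLCs (SE 0.39, adjusted p = 0.0172), a call lost without D2PGCLC replicate 2 or 3 or D4PGCLC replicate 2 (adjusted p 0.0543 to 0.0743). *Terb2* averaged 2.54 to 4.22 CPM and was not called.

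**Figure D5:**
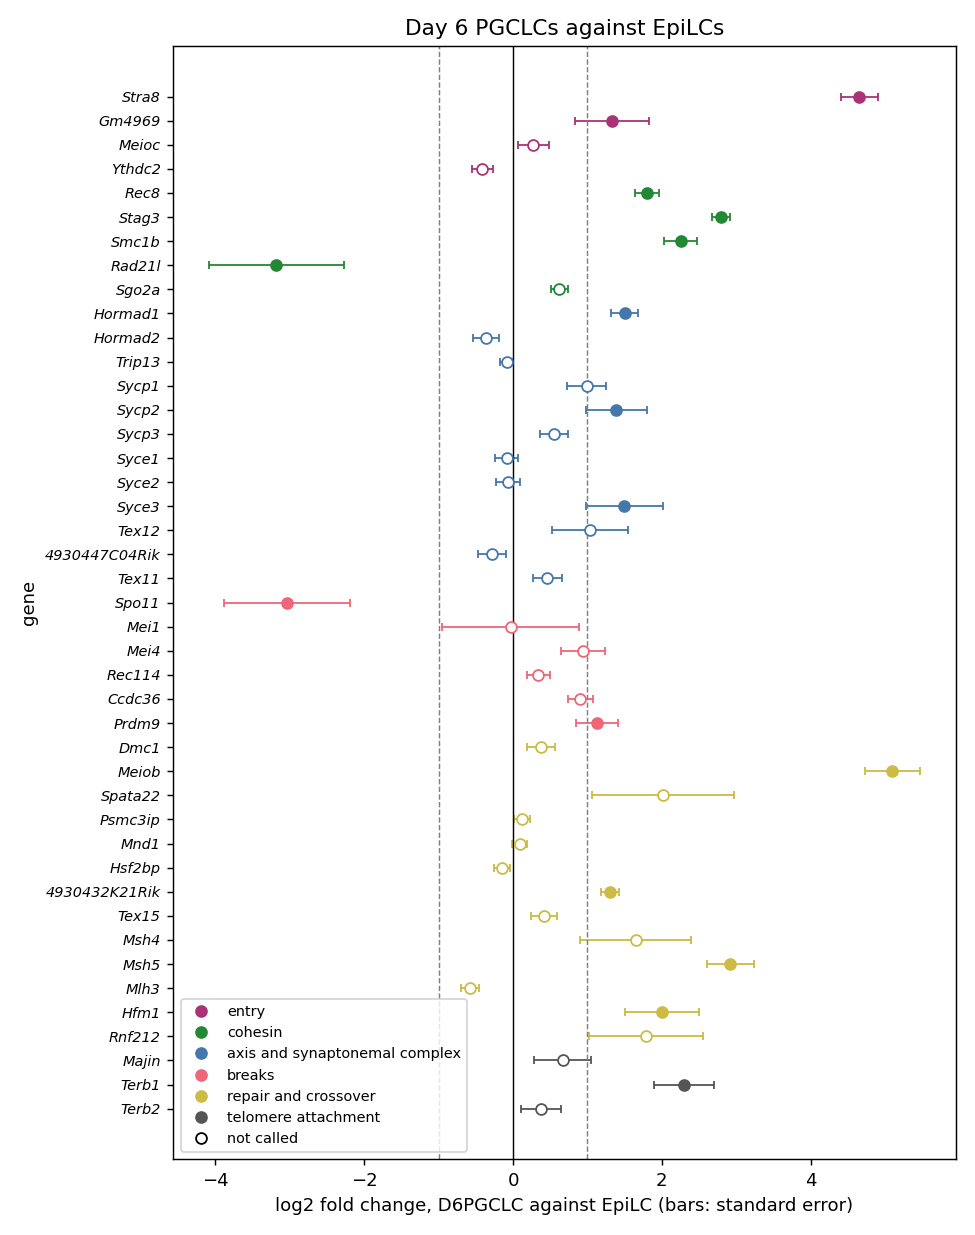
Log2 fold change of each member in D6PGCLCs against EpiLCs (points, coloured by role, open where not called), with the standard error as bars and dashed lines at the fold-change threshold of 1 in either direction. *Meiob* (5.10) and *Stra8* (4.66) lie farthest to the right, and *Rad21l* (-3.18) and *Spo11* (-3.04) are the lower calls.

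Other genes with a part in meiosis were read from lists drawn up with earlier results known. Of 22 further meiosis genes, 21 were tested. In D6PGCLCs against EpiLCs, 11 were higher and 0 lower (15.9% and 12.0% of all tested genes), with a median log2 fold change of 1.11. *Gm960* had the largest of these rises, 2.97 (log2, SE 0.66, adjusted p = 0.000843), at mean levels of 0.149 CPM in EpiLCs and 1.22 CPM in D6PGCLCs. Of 16 genes of late spermatocytes, *Pgk2* and *Acrv1* had 0 counts in all samples and 9 were tested. In D6PGCLCs against EpiLCs, 3 of the 9 were higher and 2 lower (15.9% and 12.0% of all tested genes). The largest changes among them were *Ccna1* at 2.38 (SE 0.32, adjusted p = 4e-06) and *Tcfl5* at -2.79 (SE 0.14, adjusted p = 1.08e-11).

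Of 20 retinoic acid and other entry regulators, 18 were tested. In D6PGCLCs against EpiLCs, 4 were higher and 0 lower (15.9% and 12.0% of all tested genes), with a median of -0.17. The largest rise was that of *Dazl*, a germ cell RNA-binding protein that licenses germ cells for meiosis. Its level was 11.0, 12.8 and 9.41 CPM in ESCs, 6.28, 6.31 and 6.53 in EpiLCs, 44.0, 28.1 and 45.2 in D2PGCLCs, 211, 137 and 211 in D4PGCLCs, and 460, 360 and 464 in D6PGCLCs. The PGCLC groups did not overlap, as for *Stra8*, and the rise from EpiLCs to D6PGCLCs was 6.07 (log2, SE 0.21, adjusted p = 9.52e-14). In EpiLCs against ESCs, 4 of the list were higher and 2 lower (14.4% and 11.9% of all tested genes). Of these, *Cyp26a1*, an enzyme that degrades retinoic acid, rose most, by 4.12 (SE 0.63, adjusted p = 2.1e-05, edgeR).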

How the data were processed

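RNA was extracted with TRIzol and libraries were made with the NEBNext Ultra II Directional kit. The authors deposited raw read counts per gene for 15 samples, with no normalization. The submitters' processing notes name Trim Galore, FastQC, STAR and the mm10 build, and the counting tool, its strand setting and its handling of reads with several matches are not given in the sources used here. Reads of the transgenes are not separated from the endogenous genes in these counts. Gene symbols, exon lengths and coordinates came from the GENCODE annotation of the same build.

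Groups were taken from the sample labels. Genes were kept by filterByExpr with a minimum count of 10, and counts were scaled by TMM and tested with edgeR 4.0.16 in R 4.3.3 (glmQLFit and glmQLFTest), with all 15 samples in the fit and 1 coefficient per group. P-values were adjusted by the Benjamini-Hochberg method over all 18090 tested genes. The SE of a log2 fold change was derived from the test, as its absolute value over the square root of the F statistic. CPM used the TMM library sizes, and RPKM also the exon length. Library totals were 22555021 to 42725681 counts, and intervals on counts and the floor of 3 counts cover counting error only. The test was tried on simulated data with large known changes in genes of higher counts, which does not cover low counts or smaller changes. DESeq2 1.42.0 and its size factors, no filter, a replicate block, no fold-change cutoff, fits of only the compared groups and leaving out each sample were the alternatives. All members are named, and values in every sample are given for those called between successive groups or between D6PGCLCs and EpiLCs, at most 4 per role and comparison by absolute log2 fold change. Other genes are named for the largest called change of a list in either direction. A further ratio is not reported here. The members and lists were chosen with earlier results of these data known.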

Additional observations from a re-analysis of the deposited data

How the results depend on the processing

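Of 81 called values of the members over the 6 comparisons, 61 were called under every alternative and with every sample left out, 17 lost the call somewhere, and 0 changed direction. Another 3 (*Meiob*, *Rnf212* and *Syce3* in EpiLCs against ESCs) were called in all other fits but had no value when only the compared groups were fitted. With no fold-change cutoff, lower members numbered 8 in EpiLCs against ESCs (26.2% of all tested genes), 7 in D2PGCLCs against EpiLCs (26.0%), 1 in D6PGCLCs against D4PGCLCs (6.82%), 4 in D6PGCLCs against EpiLCs (27.2%) and 3 in D6PGCLCs against ESCs (26.0%), and higher members numbered 10 in D4PGCLCs against D2PGCLCs (7.26%) and 5 in D6PGCLCs against D4PGCLCs (6.03%). When each sample was left out in turn, higher members ranged from 16 to 18 in EpiLCs against ESCs, 7 to 11 in D2PGCLCs against EpiLCs, 2 to 3 in D4PGCLCs against D2PGCLCs, 1 to 4 in D6PGCLCs against D4PGCLCs, 14 to 16 in D6PGCLCs against EpiLCs and 21 to 22 in D6PGCLCs against ESCs. Lower members ranged from 3 to 5, 1 to 3, 0 to 0, 0 to 0, 2 to 2 and 1 to 2 in the same order. Without D6PGCLC replicate 2, 2 members were lower than in ESCs. The cause was not tested, except that leaving out a sample leaves fewer samples.

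The replicate numbers were not taken as pairs in the main fit. The correlation of deviations from group means was above 0.1 in 8 of 30 pairs of samples sharing a number (mean 0.0703, highest 0.358). Among other pairs it was above 0.1 in 4 of 60 (mean -0.0352). A shared effect of the replicate number was not tested. With the replicate number as a block, all 81 calls and all 12 counts were kept, for example 14 higher and 2 lower members in D6PGCLCs against EpiLCs.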
